A study of Mus musculus with 2 samples.

Results

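The MAP kinase phosphatases and Sprouty proteins are the feedback brakes of MAP kinase signalling, and 10 of their genes were followed in dendritic cells (DCs), the antigen-presenting white blood cells that prime T cells. The members are Dusp1, Dusp2, Dusp4, Dusp5, Dusp6, Dusp7, Dusp10, Dusp16, Spry1 and Spry2. They were chosen by gene symbol among the probe sets that the platform annotation assigns to exactly 1 gene. All 10 were measured, of 19935 genes in all, and each by a single probe set. One condition was DCs isolated by flow cytometry from spleens of wild type C57BL/6 mice 8 weeks old and cultured with IL-27, a cytokine of the IL-12 family. The other was DCs of the same origin cultured with vehicle, described in one label as medium. Total RNA of each condition was read on 1 Affymetrix array, so there is no replicate, and no difference below has an error, a test or a p-value. The labels give the culture time as "ON", and the number of mice or cultures behind each array is not stated in them.

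MAP kinases are switched on by phosphorylation of a threonine and a tyrosine in their activation loop. Dual-specificity phosphatases (DUSPs) remove both phosphates and so switch the kinases off. Many DUSP genes are themselves transcribed in response to MAP kinase activity, which closes a negative feedback loop, and their transcripts are often short-lived. Sprouty proteins act further upstream and restrain the relay from receptor tyrosine kinases through RAS and RAF to ERK. In macrophages and DCs these phosphatases set how long ERK, JNK and p38 stay active after Toll-like receptor signals, and thereby how much cytokine is made.

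The members split in both directions on the IL-27 array. Dusp6, Dusp7 and Dusp10 were lower by 4.19-fold, 2.58-fold and 2.42-fold, and Dusp5 was 2.09-fold higher. Dusp1, Dusp2, Dusp16 and Spry1 differed by less than 2-fold. Dusp4 and Spry2 were too dim to be called. The size rule called a gene when its log2 difference (IL-27 minus vehicle) was at least 1 in size, that is 2-fold, and its brighter array was at or above an intensity of 96.2, the median of all probe set values. Of the 10 members 8 reached that minimum, Spry1 only through its IL-27 value, and the rule called 3 lower and 1 higher. Among all 11140 genes that reached it, 13.2% were lower and 1.52% were higher. The median difference of all 10 members was -0.17 on the log2 scale, against 0.04 over all 19935 genes. Over genes that reached the minimum it was -0.48 for the 8 members and -0.34 for all. Fewer cells of a type and less RNA per cell cannot be told apart in such bulk samples.

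Promoter sequences are shown for the higher member, for the lowest member and for Dusp1, a classic immediate early gene, because feedback control of these genes is known to act through their promoters. Each is the 250 bases before the annotated start on the gene's own strand, from RefSeq (build GRCm38.p6). Of the 10 members 9 had an entry, and Dusp4 had none. Capitals mark 2 adjoining CArG boxes, sites of the kind bound by serum response factor, in Dusp5 and a cyclic AMP response element (CRE) in Dusp1. No letters are in capitals for Dusp6.
Dusp5: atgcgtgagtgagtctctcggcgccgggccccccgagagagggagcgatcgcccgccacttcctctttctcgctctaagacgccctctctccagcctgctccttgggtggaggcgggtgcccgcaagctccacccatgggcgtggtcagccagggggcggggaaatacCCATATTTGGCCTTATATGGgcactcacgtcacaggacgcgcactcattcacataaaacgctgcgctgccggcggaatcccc
Dusp1: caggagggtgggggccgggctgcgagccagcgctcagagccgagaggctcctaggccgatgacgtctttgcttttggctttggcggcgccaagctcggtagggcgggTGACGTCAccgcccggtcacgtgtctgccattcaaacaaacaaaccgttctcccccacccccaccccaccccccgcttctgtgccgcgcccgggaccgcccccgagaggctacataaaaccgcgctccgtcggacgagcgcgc
Dusp6: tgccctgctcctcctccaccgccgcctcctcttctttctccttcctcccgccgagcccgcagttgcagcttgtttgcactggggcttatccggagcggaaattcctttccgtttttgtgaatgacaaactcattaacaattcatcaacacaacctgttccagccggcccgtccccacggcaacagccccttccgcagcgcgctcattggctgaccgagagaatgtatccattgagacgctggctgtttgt
The Dusp5 window lies at chr19:53528895-53529144 on the plus strand, that of Dusp1 at chr17:26508473-26508722 on the minus strand and that of Dusp6 at chr10:99262981-99263230 on the plus strand.

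Windows of 300 bases, with 50 bases after the start added, were searched on both strands for the CRE (TGACGTCA), its core (TGACG), the STAT-type GAS element (TTCNNNGAA), the AP-1 site (TGANTCA) and the CArG box. Dusp5 held a pair of adjoining CArG boxes, from 82 to 73 and from 72 to 63 bases before its start. Of the 9 members with a window it was the single one with that motif, which 1.63% of all 32851 windows hold. Dusp1 held the full CRE from 143 to 136 bases before its start, a motif of 1.79% of all windows. The core, found in 20.8% of all windows, stood in the windows of Dusp1, Dusp2, Dusp5 and Dusp16, and 2 of the Dusp1 positions lie within its full CRE. None of the 9 windows matched the GAS letters (8.30% of all windows) or the AP-1 letters (7.81%). A match is a description of letters and not evidence of binding, and the absence of one says only that these letters are not in this window.

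Intensities of the inducible nuclear phosphatases are given first. Dusp5, a nuclear phosphatase specific for ERK, had an intensity of 3121 on the IL-27 array, against 1491 on the vehicle array. It was the one member past the size rule upward, with a log2 difference of 1.07. The 1000 genes nearest in mean level had a median difference of -0.28, with 5th and 95th percentiles of -1.35 and 0.69, and 21 of them differed by as much or more in that direction. Median centring of the arrays brought the Dusp5 difference to 0.97, short of the size rule, whereas removal of the level-dependent trend brought it to 1.23.

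Dusp1, the immediate early phosphatase that acts mainly on p38 and JNK, had 4311 with IL-27 and 7011 with vehicle. This is 1.63-fold lower, at a log2 difference of -0.70, and short of the size rule. Of its 1000 nearest genes in level, 208 had a difference at or below that value. Most of these 1000 were dimmer than Dusp1, and with the level trend removed the Dusp1 difference was -0.69. Dusp2, a nuclear phosphatase of blood cells, had 522 with IL-27 and 376 with vehicle, a log2 difference of 0.47. Genes near Dusp2 in level had a median of -0.54, and 38 of the 1000 lay at or above its value. With the level trend removed the Dusp2 difference was 0.89, still short of 2-fold. Dusp4, a further nuclear phosphatase, had 87.3 with IL-27 and 92.5 with vehicle. The 4 nuclear phosphatases thus ran from -0.70 to 1.07 on the log2 scale, with no common direction.

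**Figure D1:**
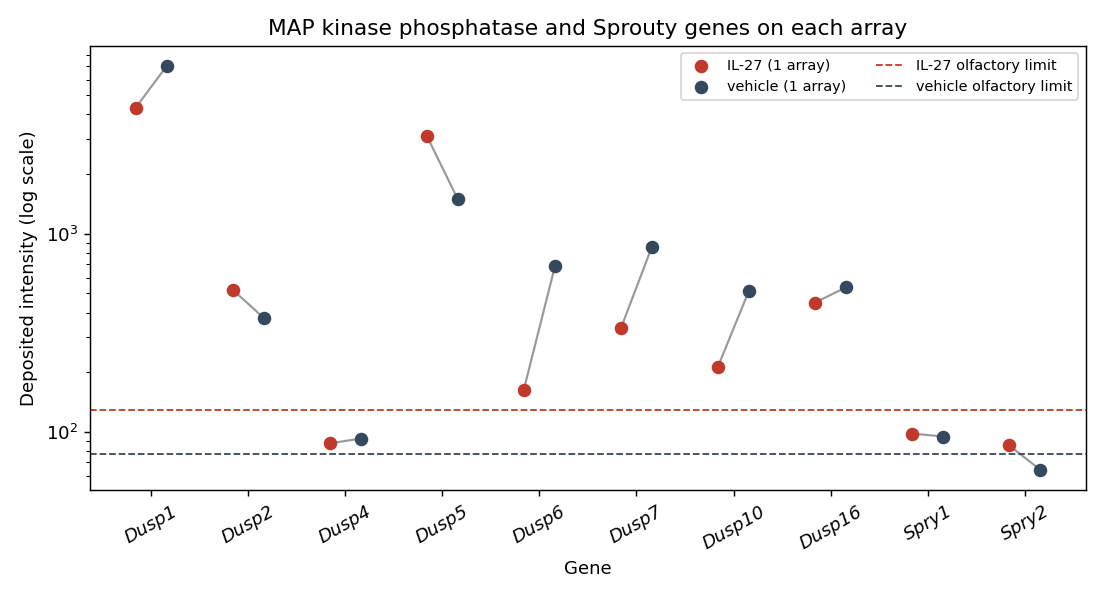
Deposited intensity (log axis) of the 10 genes on the IL-27 array (red, left of each pair) and the vehicle array (dark, right), 1 array each, joined by a grey line. Dusp6, Dusp7 and Dusp10 are dimmer with IL-27, Dusp5 is brighter with IL-27, and Dusp4, Spry1 and Spry2 lie below the IL-27 olfactory limit of 129 (dashed red); the vehicle limit is 77.3 (dashed dark).

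Both cytoplasmic ERK phosphatases were lower with IL-27. Dusp6, which is selective for ERK and is itself a widely used readout of ERK activity, had an intensity of 163 with IL-27 and 684 with vehicle. Its log2 difference of -2.07 ranked 52 from the lowest of 19935 genes. Among the 1000 genes nearest in level, whose median was -0.54, 6 had a difference at or below that of Dusp6. It was past the size rule as deposited and under all 3 other scalings, from -2.16 with median centring to -1.63 with the level trend removed. Dusp7, its close relative, had 333 with IL-27 and 861 with vehicle, a log2 difference of -1.37. For Dusp7, 72 of the 1000 nearest genes lay at or below its value. Removal of the level trend left Dusp7 at -0.98, just short of the size rule.

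Dusp10 and Dusp16 also act on JNK and p38, and the rule called Dusp10 lower and Dusp16 neither. Dusp10 had 213 with IL-27 and 517 with vehicle, a log2 difference of -1.28. Genes near it in level had a median of -0.54, and 96 of the 1000 lay at or below its value. The call depended on the scaling, since Dusp10 was at -0.96 after quantile normalization and at -0.84 with the level trend removed. Dusp16, a shuttling JNK phosphatase, had 449 with IL-27 and 536 with vehicle. Its log2 difference was -0.26 as deposited, 0.08 after quantile normalization and 0.15 with the level trend removed, so its direction is not settled.

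The Sprouty genes and Dusp4 were near the intensities of genes not expected in DCs. The 95th percentile of 1027 olfactory receptor genes was 129 on the IL-27 array and 77.3 on the vehicle array, and is called the olfactory limit. Spry1 had 97.9 with IL-27 and 94.7 with vehicle, and Spry2 had 85.3 with IL-27 and 64.3 with vehicle. Spry2 lay below the limit on both arrays. Spry1 and Dusp4 lay below it on the IL-27 array and above it on the vehicle array. Their small differences, of 0.05 for Spry1, 0.41 for Spry2 and -0.08 for Dusp4, therefore cannot be read as differences in expression, and that of Spry1 turned to between -0.05 and -0.07 under the other scalings. The other 7 members were above the limit on both arrays.

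**Figure D2:**
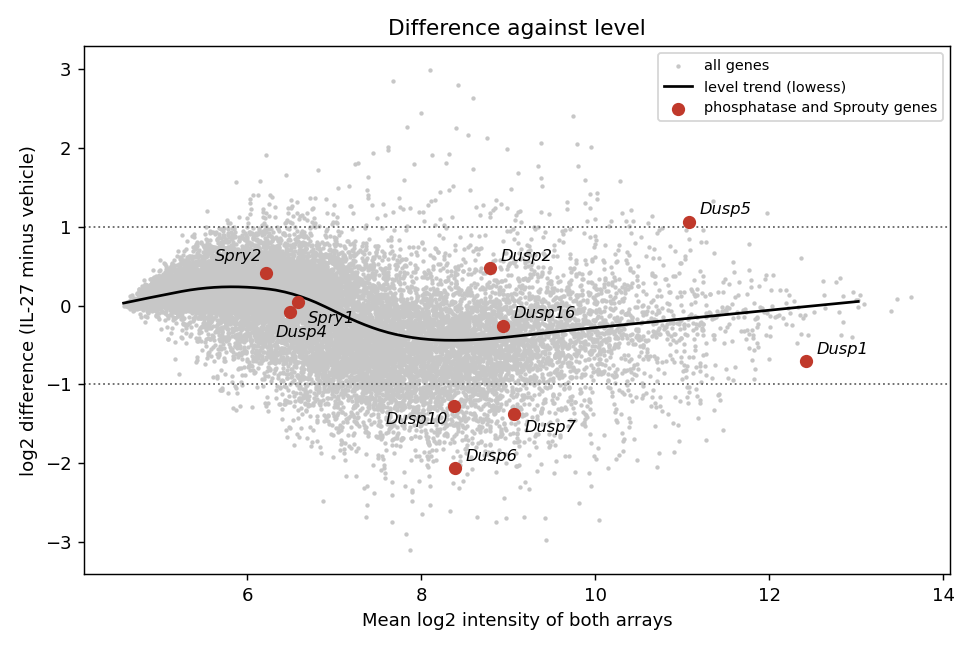
log2 difference (IL-27 minus vehicle, vertical axis) against the mean log2 intensity of both arrays (horizontal axis) for 19935 genes (grey) and the 10 members (red), with the lowess trend over all probe sets (black) and the 2-fold lines (dotted). Dusp6 lies far below the trend at -2.07, Dusp7 and Dusp10 nearer to it at -1.37 and -1.28, and Dusp5 above it at 1.07.

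The differences depended on level across the arrays, which bears on the members of middle intensity. Over all genes above the level minimum the median difference was -0.34 as deposited and -0.10 with the level trend removed. Dusp2, Dusp6, Dusp7, Dusp10 and Dusp16 lie where the trend is lowest, with medians of their nearest genes between -0.54 and -0.49. With the trend removed 1 member, Dusp6, was lower and 1, Dusp5, was higher, beside 6.70% lower and 2.38% higher among all genes over the minimum. After quantile normalization Dusp6 and Dusp7 were lower and Dusp5 was higher, beside 8.17% lower and 2.12% higher among all genes. After median centring Dusp6, Dusp7 and Dusp10 were lower and no member was higher, beside 16.8% lower and 1.19% higher.

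**Figure D3:**
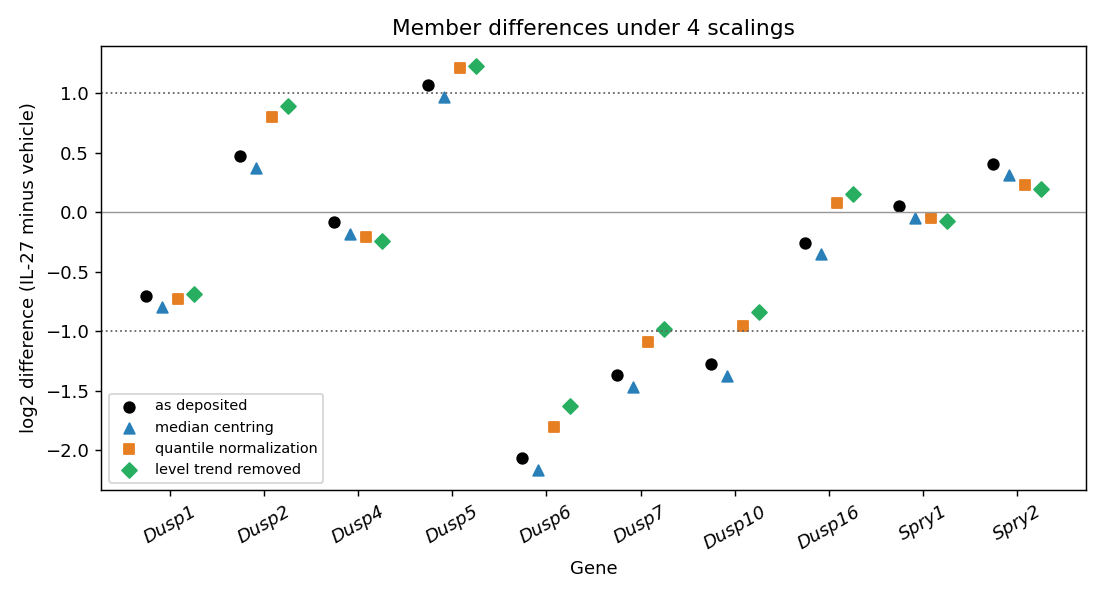
log2 difference (IL-27 minus vehicle, vertical axis) of each of the 10 genes as deposited (circles), after median centring (triangles), after quantile normalization (squares) and with the level trend removed (diamonds), with 2-fold lines dotted. Dusp6 stays below -1 under all of them, Dusp5 lies between 0.97 and 1.23, and the Dusp7 and Dusp10 points straddle -1.

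The other dual-specificity phosphatases, most of them small enzymes without the MAP kinase docking domain, and the other Sprouty relatives did not pass the size rule. Of 18 further phosphatase genes 12 were over the level minimum, with 0 higher and 0 lower, beside 1.52% and 13.2% of all such genes. The median over all 18 was 0.04, against 0.04 over all genes. Over genes that reached the minimum it was -0.06, against -0.34 in all. Dusp19, Dusp22 and Dusp12 had the largest differences, at -0.88, -0.77 and -0.62, and the IL-27 values of Dusp19 and Dusp12 lay below the olfactory limit. Dusp9, a further cytoplasmic ERK phosphatase named after its values were seen, had 103 with IL-27 and 104 with vehicle. Its log2 difference was -0.01, and its IL-27 value also lay below that limit. Of 5 Sprouty and Spred genes 3 were over the minimum, again with 0 past the rule, too few to set beside those shares. Spred2, which blocks RAF activation, had 160 with IL-27 and 300 with vehicle, and Spred1, its relative, had 691 with IL-27 and 492 with vehicle. Their log2 differences were -0.90 for Spred2 and 0.49 for Spred1.

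Genes listed as other ERK feedback regulators or tyrosine phosphatases were also mostly within 2-fold. The rule called 1 of 13 over the level minimum lower, which is no more than the 13.2% of all genes. Rasa1, a GTPase activator that turns RAS off, had 191 with IL-27 and 413 with vehicle (log2 difference -1.12, or -0.68 with the level trend removed). The ubiquitin ligase genes Cbl and Cblb, which end receptor signalling, differed by -0.84 and 0.61.

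The substrates of the phosphatases were then examined. Of 11 MAP kinase genes measured, 7 reached the level minimum, and 3 were called lower and 0 higher. Among all genes that reached it 13.2% were lower and 1.52% higher. Mapk14 and Mapk11, which encode p38 alpha and beta, were 2.29-fold and 2.26-fold lower, and Mapk9, a JNK gene, was 2.62-fold lower. Mapk14 had 560 with IL-27 and 1281 with vehicle. None of Mapk14, Mapk11 and Mapk9 was past 2-fold with the level trend removed, where they were at -0.88, -0.83 and -0.99. With that trend removed 0 of the 7 were lower, beside 6.70% of all genes. The median of the 11 measured genes was 0.09, and that of the 7 that reached the minimum was -0.94 (-0.50 with the level trend removed), against -0.34 (-0.10) over all such genes.

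The kinases that switch p38 on differed in opposite directions. Map2k3 had 1199 with IL-27 and 350 with vehicle, which is 3.42-fold higher, with a log2 difference of 1.78 that became 2.13 with the level trend removed. Map2k6, its partner in activating p38, had 96.5 with IL-27 and 275 with vehicle. The IL-27 value lay below the olfactory limit, and against that limit Map2k6 was at least 2.12-fold lower. Both calls held with the level trend removed. Of 6 MAP2 kinase genes, all over the minimum, these 2 passed the size rule, and Map2k1, an activator of ERK, was next at -0.95. Among all genes over the minimum 1.52% were higher and 13.2% lower.

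One level up, the rule called 2 of 14 MAP3 kinase genes lower and 0 higher, a share near the 13.2% of all genes. Map3k3 was 2.11-fold lower (-0.68 with the level trend removed), and Map3k4 at least 1.44-fold lower against the olfactory limit. Map3k8, the kinase that links Toll-like receptors to ERK, had 511 with IL-27 and 562 with vehicle. Map3k14, the kinase of the alternative NF-kB pathway, was at 0.70, or 1.07 with the level trend removed. Map3k8 and Map3k14, like Map2k1, Cblb and Rasgrp1, were named after their values were seen.

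Among RAS proteins, exchange factors and adaptors, the rule called 3 of 15 genes lower, beside 13.2% of all genes. These 3 encode guanine nucleotide exchange factors of the RasGRP family, which load RAS-type GTPases with GTP in blood cells. Rasgrp3 had 276 with IL-27 and 1127 with vehicle, a 4.08-fold lower level. Rasgrp4 had 261 with IL-27 and 814 with vehicle, which is 3.12-fold lower. Rasgrp2 had 92.8 with IL-27, a value within the olfactory range, and 356 with vehicle, and was at least 2.75-fold lower. All 3 stayed past 2-fold with the level trend removed, between -1.64 and -1.23, where 6.70% of all genes were lower. Rasgrp1, with 347 and 693 on the IL-27 and vehicle arrays, was just short of the rule. Of 7 kinases activated by MAP kinases 1 was called lower, beside the same 13.2% of all genes. This was Mknk1, which phosphorylates a translation initiation factor, at 2.36-fold lower (-0.89 with the level trend removed). The other 6 were within 2-fold.

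**Figure D4:**
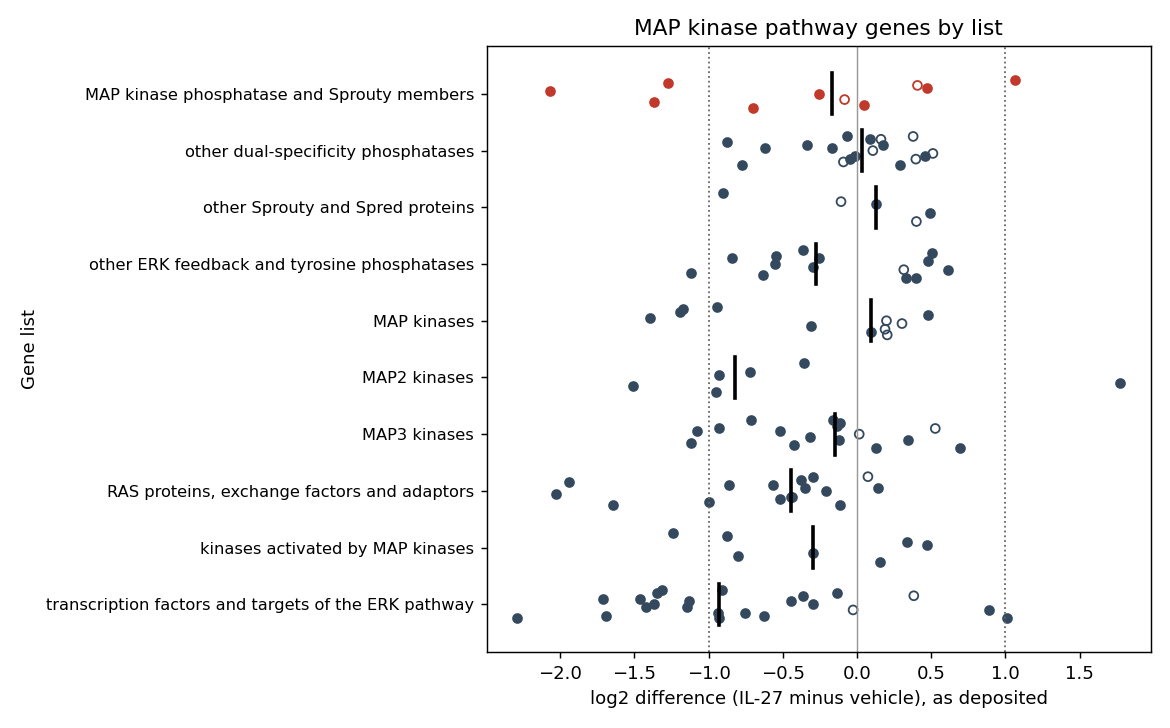
log2 difference (IL-27 minus vehicle, horizontal axis) of each measured gene in the member list (red) and 9 further lists (dark), with open circles for genes below the level minimum, black bars for list medians and dotted 2-fold lines. The list of ERK pathway transcription factors and targets has its median at -0.93 and 10 genes below -1, and Map2k3 stands apart at 1.78.

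The list of ERK pathway transcription factors and targets, like the other lists, was chosen with earlier results of these data known. ERK activity was not tested. Of the 21 listed genes that reached the level minimum, 10 were lower on the IL-27 array, beside 13.2% of all genes. Of the others 1 was higher and 10 were neither, and 2 of the 23 measured were below the minimum. Their median difference was -0.93 as deposited and -0.55 with the level trend removed, against 0.04 and -0.02 over all genes. Over genes that reached the minimum it was -0.93 in the list and -0.34 in all. With the trend removed 9 of 21 were lower, beside 6.70% of all genes. Fos, which encodes a subunit of the AP-1 factor, had 450 with IL-27 and 2199 with vehicle, and was 4.89-fold lower. Fosb and the cyclin gene Ccnd1 were 3.27-fold and 3.22-fold lower, Myc and the early gene Ier2 2.75-fold and 2.68-fold, and Egr1, an early zinc finger factor, and Jund 2.58-fold and 2.55-fold. Jun and Atf3 were 2.19-fold and 2.22-fold lower, Atf3 at -0.996 with the trend removed, and Etv5, an ETS factor induced by ERK, was at least 2.19-fold lower. Ier3 was the higher gene, with 326 with IL-27 and 161 with vehicle, and like Dusp5 it lay above its vehicle level. Passing the rule or not, 20 of the 23 genes had a difference below 0, beside 9285 of all 19935 genes.

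Of the 92 genes in these further lists that had a promoter entry, 5 held a CArG box like that of Dusp5 and 0 of these 5 passed the size rule. They were Zfp36 (-0.93), Egr2 (-0.63), Srf (-0.30), Mknk2 (0.47) and Ptprr, which was below the level minimum. The full CRE of Dusp1 stood in 7, of which 5 were over the minimum, also with 0 past the rule. Among all genes over the minimum 13.2% were lower and 1.52% higher. With so few genes, 0 calls cannot be read as a result about either motif. The CArG box genes were named for their motif, after their values were seen.

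Of 16 DC markers, whose median difference was -0.63, 15 reached the minimum, and 4 were called lower and 0 higher. Among all genes that reached it 13.2% were lower and 1.52% higher. With the level trend removed 3 of the 15 were lower, beside 6.70% of all genes. Cd74 had 8544 with IL-27 and 8134 with vehicle, and Itgax, which encodes CD11c, had 1829 with IL-27 and 3371 with vehicle. The lower markers were Cd209a (410 with IL-27 and 2710 with vehicle), Xcr1 (559 and 1579), Sirpa (1416 and 3797) and Flt3 (851 and 1796), and Clec10a lay within the olfactory limit on both arrays. Macrophage and monocyte markers were lower alongside Dusp6, Dusp7 and Dusp10, in 8 of 12 over the minimum, beside the same 13.2% of all genes. With the level trend removed 7 of 12 were lower, beside 6.70%. Intensities over the 13 measured summed to 11711 with IL-27 and 26839 with vehicle. Of the 13, 4 (Cd163, Fcgr1, Marco and Ccr2) lay within the olfactory limit with IL-27, against 1 (Ccr2) with vehicle. The limit is lower on the vehicle array, and over all genes 12361 lay within it with IL-27 and 8376 with vehicle. Their part in these results was not tested. Summed T cell markers were at 696 and 650, neutrophil markers at 732 and 832, NK cell markers at 905 and 1080, B cell markers at 1669 and 2274, plasmacytoid DC markers at 1784 and 2734 and erythroid markers at 478 and 550 on the IL-27 and vehicle arrays. Within the olfactory limit lay 7 of 8 T cell, 9 of 10 neutrophil and 9 of 10 NK cell markers on the IL-27 array, and 4, 6 and 6 of these on the vehicle array. All 5 erythroid markers measured lay within it on the IL-27 array, and 1 on the vehicle array.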

How the data were processed

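The authors deposited linear intensities of 28815 probe sets for each of the 2 arrays. How they were background-corrected, summarized and scaled is not given in the sources used here. The genome build was mm8, per the submitters' processing notes. All intensities in the authors' deposited table were above 0, and log2 was taken with no pseudocount. Medians were 98.9 on the IL-27 array and 92.4 on the vehicle array. Precision is limited by having 1 array per condition.

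GEO's platform annotation gave 1 gene to 21780 probe sets and several genes to 1605, which were left unnamed. The gene IDs of all 10 members matched RefSeq (GRCm38.p6), as did 9 promoters. A gene with several probe sets was represented by the one with the highest mean log2 value. Probe sets can cross-hybridise between related genes, and no detection call came with the values. Intensities of different probe sets need not compare as levels. This limits the level minimum, the olfactory limit, the genes nearest in level and the marker sums.

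Members, gene lists, the size rule and the motifs were chosen with earlier results of these data known. Named genes were all members, list members past the size rule and otherwise up to 3 per list with the largest difference, the DC markers, and genes stated to be named after their values were seen. The level-dependent trend was taken by lowess (span 0.3, statsmodels 0.14.6) of the difference on the mean over all probe sets, and the procedure was tested on simulated data. Alternatives were quantile normalization, median centring, trend removal, a 1.5-fold rule, an offset of 16, other filters on level, the mean of probe sets and the olfactory limit as a floor. Python 3.11.15 was used.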

Additional observations from a re-analysis of the deposited data

How the results depend on the processing

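No paired analysis was possible because each condition had 1 array. Each member had 1 probe set, so taking each probe set or their mean changed none. Over the 4 alternatives that change every value (quantile normalization, median centring, trend removal and the offset), 31 of 40 member values kept their direction and side of the size rule. Dusp5 with median centring (0.97), Dusp7 with the level trend removed (-0.98) and Dusp10 with the trend removed (-0.84) or quantile normalization (-0.96) fell short. Signs turned for Dusp16 with quantile normalization (0.0760) and trend removal (0.15), for Spry1 with quantile normalization (-0.0471), median centring (-0.0485) and trend removal (-0.0747), and for Dusp4 with the olfactory limit as a floor (0.49), where the unequal limits of the arrays set the value. Higher members numbered 0 with median centring and lower members 1 with the trend removed.

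Over all genes 169 were higher and 1468 lower as deposited. With the trend removed 264 were higher and 744 lower, so that higher genes made up 26.2% of the calls in place of 10.3%, and with quantile normalization 20.6%, with 907 lower. A 1.5-fold rule gave 653 and 3753, and a minimum on both arrays 97 higher. In the 9 further lists 2 genes were higher and 21 lower as deposited, and 3 and 14 with the trend removed. Higher genes there numbered 1 with median centring, 1 with the offset and 5 at 1.5-fold, which gave 42 lower.

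Signs of list medians turned for the members with the floor (0.0983), for other phosphatases with median centring (-0.0619), for other ERK regulators with trend removal (0.0279), for MAP kinases with median centring (-0.0033) and trend removal (-0.0146), for MAP3 kinases with quantile normalization (0.10) and trend removal (0.19), and for kinases activated by MAP kinases with quantile normalization (0.00013) and trend removal (0.0721). Where a scaling changed a call, the cause was not tested.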

Other observations

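The motifs found in the Dusp5 and Dusp1 promoters were also looked up over all measured genes with a promoter entry, a question raised after the data were seen. Of 8935 such genes over the level minimum, 1.42% were higher and 13.3% lower with IL-27, with a median log2 difference of -0.36. Among 140 genes with a CArG box, as in Dusp5, 1 was higher, which was Dusp5 itself, and 17 were lower (12.1%), with a median of -0.28. Without Dusp5, for which the motif was looked up, 0 were higher. Of 300 genes with the full CRE, as in Dusp1, 2 were higher and 28 lower (9.33%), with a median of -0.34. The AP-1 letters, absent from the member windows, stood in 578 genes, of which 21 were higher (3.63%) and 80 lower (13.8%). The GAS letters stood in 731, with 18 higher (2.46%) and 99 lower (13.5%). These shares describe 1 array per condition and were not tested.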
